A study of Mus musculus with 20 samples.

Results

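A set of 8 transcription factors of the kidney epithelium were followed by bulk RNA sequencing in a mouse model of kidney cancer. They are Hnf4a, Hnf4g, Pax2, Pax8, Lhx1, Tfap2b, Esrrg and Tfcp2l1, 8 of the 54532 genes listed in the count table, and they were picked by name for their roles in building or maintaining the nephron. All 8 passed the filter on low counts, Tfap2b only through normal kidneys, and the filter left 15354 genes for testing. The samples were 10 tumors and 10 normal kidneys or normal kidney regions from the same 10 C57BL/6 mice. Every mouse was LSL-Cas9/+; Pax8 Cre/+, that is, it carried a Cas9-EGFP cassette at Rosa26 that Cre switches on, and Cre under the Pax8 promoter, and its kidney had been injected with an adeno-associated virus (AAV) that carried sgRNAs against Vhl, Tsc1, Keap1 and Pbrm1. The inherited Cas9 and Cre alleles were thus the same in both groups. In tumors of this model the paper reports edits of the genes targeted by the sgRNAs. The sources used here do not say whether the normal tissue came from an injected kidney. Cas9 could be made only in cells that had expressed Pax8, which include the cells of the renal tubule, and both groups were pieces of whole tissue that still held vessels, immune cells and stroma. Per the study's methods, mice of both sexes were injected as young adults, and their age when the tissue was taken was not given in the sources used here.

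The nephron is built and patterned by transcription factors that act in sequence. Pax2, Pax8 and Lhx1 are needed when the early nephron forms, and Pax2 and Pax8 stay on in the adult tubule. Hnf4a and its relative Hnf4g are nuclear receptors of the proximal tubule, where Hnf4a drives genes of reabsorption and metabolism. Tfap2b is needed in the distal convoluted tubule, Esrrg is an orphan nuclear receptor of mitochondrial and tubular transport genes, and Tfcp2l1 patterns the cells of the distal nephron and collecting duct.

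Total counts ranged from 18447394 to 24902973 per tumor and from 14737516 to 26679704 per normal kidney. Values below are CPM, that is, counts scaled to the size of the library, with TMM factors that correct for its composition, and unless stated otherwise p-values come from the quasi-likelihood test of edgeR with Benjamini-Hochberg adjustment over all genes tested, with 10 libraries a group. RNA of the genes that the guides target was 56.0 to 91.3 CPM in tumors against 36.6 to 50.6 CPM in normal kidneys for Keap1, and 12.3 to 28.6 CPM against 21.6 to 28.8 CPM for Vhl. For Pbrm1 it was 36.2 to 74.9 CPM against 20.0 to 93.0 CPM, and for Tsc1 25.7 to 52.0 CPM against 18.9 to 62.1 CPM. Keap1 was higher in tumors (log2 fold change 0.83, adjusted p = 1.3e-07), Vhl (-0.49, adjusted p = 0.00179) and Tsc1 (-0.61, adjusted p = 0.00871) were lower, Pbrm1 did not pass (-0.28, adjusted p = 0.23), and an RNA level is no check of whether a guide cut its gene. Normal kidneys 5, 7 and 8 had the highest levels of the tubule injury gene Lcn2 (1760 to 3300 CPM, against 9.77 to 50.3 CPM in 6 others and 232 CPM in normal kidney 9), and Havcr1, which marks injured proximal tubules, was at 128 to 1350 CPM in them, 3.18 to 35.7 CPM in the other 7 and 102 to 586 CPM in tumors. Normal kidney 9 had the lowest TMM factor (0.749, against 1.03 to 1.14 in the other normal kidneys), the highest share of mitochondrial counts (12.2%) and the fewest genes detected (19996). Tumor 7 had the highest summed level of 5 fibroblast genes (6467 CPM, against 101 to 443 CPM in the other tumors) and of 7 macrophage genes (1766 CPM), and the lowest of 12 proximal tubule genes (1190 CPM). Results that turn on these libraries are given with and without them.

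Of the 8 factors, 7 fell in tumors (adjusted p under 0.05) and 0 were higher, where 23.8% of all genes tested were lower and 23.6% higher. By edgeR 0 factors were higher at an unadjusted p under 0.05 too, and limma-voom with quality weights called 1, Pax8. Over all genes tested, the median log2 fold change was -0.02. Tfap2b fell by 8.70 on the log2 scale and Hnf4g by 1.54, and both were also past the stricter limits used by the study, a log2 fold change of 1 with an unadjusted p of 0.001, which 10.2% of genes passed in that direction. Hnf4a, Pax2, Lhx1, Esrrg and Tfcp2l1 fell by between 0.67 and 0.87 on the log2 scale. Pax8 did not pass the test. In these tissue samples, fewer cells of a type and less RNA per cell cannot be told apart.

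**Figure D1:**
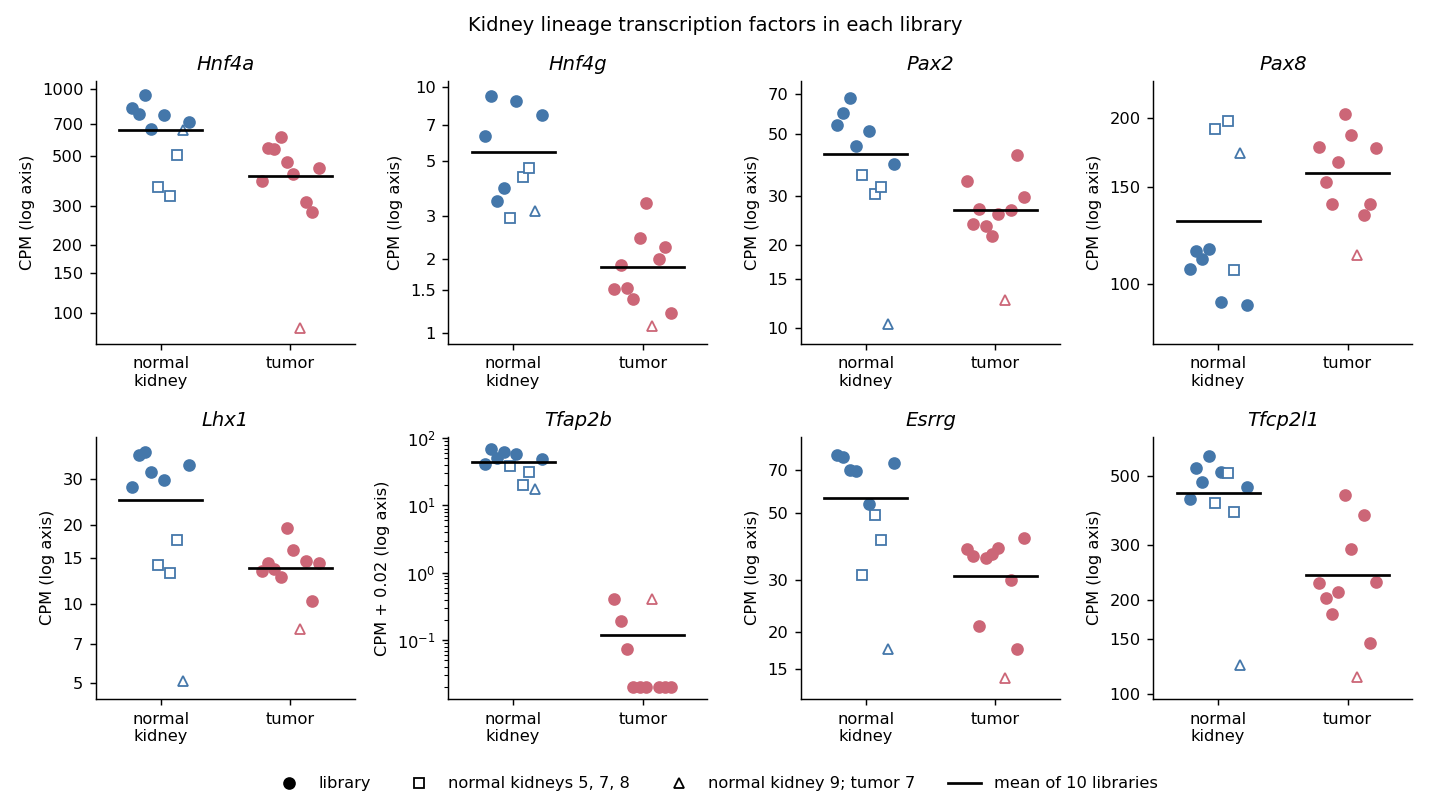
Level of each factor in each library, in CPM on a log axis (0.02 CPM was added for Tfap2b, which had libraries at 0), with 10 normal kidneys in blue, 10 tumors in red and the group mean as a line. Open squares are normal kidneys 5, 7 and 8, and open triangles are normal kidney 9 and tumor 7. Tumors lay apart from all normal kidneys in Tfap2b, 9 of 10 did so in Hnf4g, and Pax8 ran the other way from the rest.

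The factors at the ends of this range were Tfap2b, which was nearly lost, and Pax8, whose promoter drives the Cre of these mice and which did not fall. The 250 bases before their RefSeq transcript starts (GRCm38.p6) are shown here, with CpG pairs, the sites of DNA methylation, in capitals. Tfap2b is at chr1:19211804-19212053 on the plus strand, which lies inside the span that the count table gives for the gene, and Pax8 is at chr2:24475600-24475849 on the minus strand, directly before the gene. Both run 5′ to 3′ along the gene.
Tfap2b: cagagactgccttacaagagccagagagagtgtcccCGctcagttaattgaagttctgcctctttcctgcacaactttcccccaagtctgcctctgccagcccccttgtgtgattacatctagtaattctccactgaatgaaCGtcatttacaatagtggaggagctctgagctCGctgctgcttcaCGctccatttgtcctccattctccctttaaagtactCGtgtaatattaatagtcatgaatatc
Pax8: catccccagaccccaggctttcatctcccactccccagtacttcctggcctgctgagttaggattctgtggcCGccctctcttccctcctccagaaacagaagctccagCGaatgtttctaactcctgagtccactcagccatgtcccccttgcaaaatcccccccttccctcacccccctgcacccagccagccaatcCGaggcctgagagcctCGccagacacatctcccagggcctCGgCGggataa

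The Tfap2b stretch held 5 CpG pairs at a GC content of 46.4% and the Pax8 stretch held 6 at 60.4%, where the median of 32851 such stretches of mouse genes was 6 CpG pairs and 52.4% GC. RefSeq listed 13 starts for 7 of the factors, and Hnf4g had no entry. The 13 stretches held from 3 CpG pairs, before the upstream start of Hnf4a, to 26, before Lhx1. Motifs were searched on both strands. The letters GCCNNNGGC, which AP-2 proteins such as Tfap2b bind, occurred in 3 of the 13 stretches (1 each of Pax2, Esrrg and Tfcp2l1) and in 13.7% of all stretches. TATAAA occurred in 2 of the 13 and in 12.4% of all. CAAAGTCCA (a motif of HNF4) and TCAAGGTCA (estrogen-related receptors) occurred in none of the 13, and in 0.38% and 0.39% of all stretches. No motif searched overlapped another in its letters, and absence from these windows says only that the letters are not there.

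Hnf4a and Hnf4g, the nuclear receptors of the proximal tubule, were both lower in tumors, Hnf4g more so. Hnf4a (ENSMUSG00000017950, chromosome 2, 163506808 to 163572910, mm10) was at 85.8 CPM in the lowest tumor, 429 CPM in the median tumor and 610 CPM in the highest, and at 331, 687 and 942 CPM in the lowest, median and highest normal kidney. The groups overlapped, with 3 tumors below every normal kidney. Tumors averaged 409 ± 153 CPM and normal kidneys 653 ± 197 CPM (SD, n = 10 each), and the log2 fold change was -0.67 (SE 0.258, adjusted p = 0.0371 by edgeR). The call was held by 12 of the 20 fits that left out a single library, with adjusted p from 0.0189 to 0.0698. It was lost without normal kidney 1, 2, 3, 6 or 10, at adjusted p from 0.0534 to 0.0698, and without tumor 1, 8 or 9, at 0.0556 to 0.0565.

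The spread of Hnf4a followed the libraries that stood apart. Normal kidneys 5, 7 and 8, high in injury genes, had 363, 331 and 507 CPM, whereas the other 7 had 653 to 942 CPM. Tumor 7 had 85.8 CPM and the other 9 had 282 to 610 CPM. Without normal kidneys 5, 7, 8 and 9 the log2 fold change was -0.94 (adjusted p = 0.00669 by edgeR), and without tumor 7 and normal kidney 9 it was -0.57 (adjusted p = 0.0192). The part that injury in these kidneys or stroma in tumor 7 has in the difference was not tested.

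Hnf4g (ENSMUSG00000017688, chromosome 3, 3508030 to 3658052) was the least abundant of the factors in normal kidneys, with 50 to 153 counts per library there and 25 to 63 in tumors. Its lowest, median and highest levels were 1.07, 1.70 and 3.38 CPM in tumors against 2.93, 4.50 and 9.17 CPM in normal kidneys. As many as 9 of 10 tumors lay below every normal kidney, which 8.48% of genes tested showed in at least that many tumors, and tumor 6 was the exception. The log2 fold change was -1.54 (SE 0.261, adjusted p = 5.26e-05 by edgeR), a 2.91-fold lower level, and all 30 alternative fits kept it past the threshold. Per kb of exon, tumors held on average 112 Hnf4a for each Hnf4g and normal kidneys 67.4. This balance differed by -0.74 on the log2 scale (tumors -6.81 ± 0.81, normal kidneys -6.07 ± 0.61, SD, n = 10 each, permutation test, two-sided p = 0.0352, also 0.0352 after adjustment over 2 balances). The p lay near the threshold: without a single library the difference stayed between -0.89 and -0.62, and 10 of these 20 tests gave an exact permutation p between 0.0508 and 0.0664. Without normal kidneys 5, 7 and 8 the difference was -0.61 (exact permutation p = 0.122).

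The level of Hnf4a in tumors went with that of 12 proximal tubule genes such as Slc34a1, the phosphate transporter, and Lrp2, the endocytic receptor megalin. Over the 10 tumors Pearson's r of log2 Hnf4a with the log2 summed CPM of these genes was 0.96 (permutation p = 0.0002, adjusted p = 0.0014 over 14 relations) and Spearman's rho was 0.87 (permutation p = 0.00185, adjusted p = 0.0129). Without tumor 7, r was 0.86 (n = 9, exact permutation p = 0.0036, adjusted p = 0.0252 over the 7 relations in tumors). Without the 2 tumors farthest from the median of the summed level, r was 0.82 (n = 8, exact permutation p = 0.0127, adjusted p = 0.0508), so the relation no longer passed after adjustment. Hnf4a and these genes share a library and its depth. The summed level itself was 1190 to 9820 CPM in tumors (median 6030) against 2830 to 19300 CPM in normal kidneys (median 10920). In tumors 5 of the 11 list genes tested were lower, where 23.8% of all genes tested were. Much of the sum in tumors was Lrp2 (mean 2758 CPM, against 1868 CPM in normal kidneys), which did not pass (log2 fold change 0.56, adjusted p = 0.275 by edgeR).

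Normal kidneys fell into separate clusters in the same plot. Kidneys 5, 7 and 8 had 2830 to 4140 CPM of the proximal tubule genes and the other 7 had 9400 to 19300 CPM, so a pooled r is not given. Within the 7 other kidneys r was -0.17 (n = 7, exact permutation p = 0.711), and without kidney 9, which had the highest sum, it was 0.38 (n = 6, exact permutation p = 0.481). Kap, a gene of this list, ranged from 1.38 to 10150 CPM across normal kidneys. A high sum can thus rest largely on that gene, and these r need not follow the amount of proximal tubule. Hnf4g had no relation past the threshold with the proximal tubule list in tumors (r = 0.19, n = 10, permutation p = 0.599) nor within the 7 kidneys (r = -0.26, n = 7, exact permutation p = 0.563) or without kidney 9 as well (r = 0.28, n = 6, exact permutation p = 0.583).

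**Figure D2:**
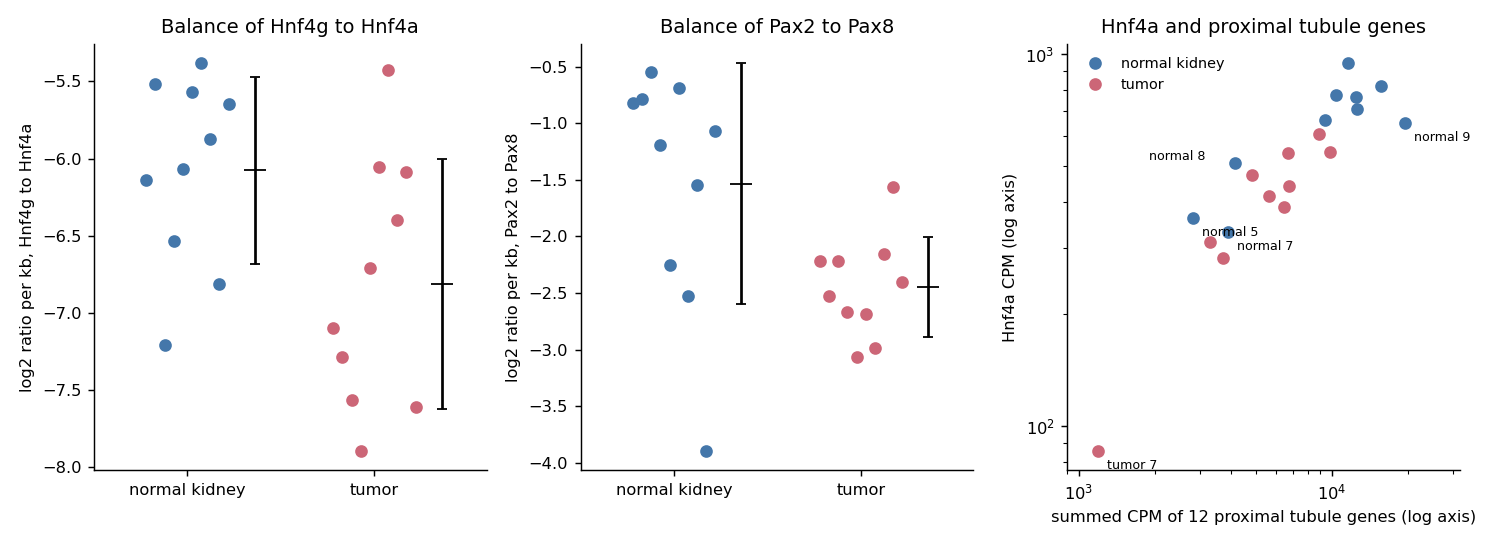
Left and middle, log2 ratio per kb of Hnf4g to Hnf4a and of Pax2 to Pax8 in each library, with the group mean and SD as black bars (10 normal kidneys in blue, 10 tumors in red). Right, Hnf4a in CPM against the summed CPM of 12 proximal tubule genes, both on log axes, where tumor 7 lies at the lower left (1190 and 85.8 CPM) and normal kidneys 5, 7 and 8 lie among the tumors.

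Pax2 and Pax8, paired-box factors of the early nephron, moved apart. Pax2 (ENSMUSG00000004231, chromosome 19, 44756045 to 44837871) ranged from 12.7 CPM in the lowest tumor through a median of 26.3 to 42.1 CPM, and from 10.4 through 42.2 to 67.6 CPM in normal kidneys. No tumor lay below every normal kidney, because normal kidney 9 had the lowest value of all 20 libraries, and the other 9 normal kidneys had 30.6 to 67.6 CPM. Pax2 fell by 0.67 on the log2 scale (SE 0.242, adjusted p = 0.0266 by edgeR), and without tumor 7 and normal kidney 9 the fall was 0.73 (adjusted p = 0.000805). The call was kept in 27 of 30 alternative fits and lost in 3. These were the edgeR fits without normal kidney 2 (adjusted p = 0.0511), without normal kidney 3 (adjusted p = 0.0571) and with the library number as a block (adjusted p = 0.0671).

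Pax8 (ENSMUSG00000026976, chromosome 2, 24420560 to 24475599, minus strand) marks the tubule lineage in adult kidney. It was at 113, 160 and 203 CPM in the lowest, median and highest tumor and at 91.7, 113 and 197 CPM in normal kidneys, so the groups overlapped. Its mean was 159 ± 27.8 CPM in tumors against 130 ± 40.7 CPM (SD, n = 10 each), and the log2 fold change of 0.29 (SE 0.157, 95% interval -0.04 to 0.62) did not pass the test (adjusted p = 0.137 by edgeR). High levels were found in 3 normal kidneys, namely 7 (197 CPM), 5 (191 CPM) and 9 (173 CPM), and the other 7 lay between 91.7 and 116 CPM. Kidneys 5 and 7 were high in injury genes, and kidney 8, also high in them, had 106 CPM of Pax8.

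Leaving out normal kidneys changed this result. Without normal kidney 7 Pax8 was 0.38 higher in tumors on the log2 scale (adjusted p = 0.0423 by edgeR), without kidneys 5, 7 and 8 it was 0.47 higher (adjusted p = 0.00939), and without kidneys 5, 7, 8 and 9 it was 0.58 higher (adjusted p = 0.000435). In the last fit 29.6% of genes were higher in tumors and 28.3% lower. In all, 9 of 10 tumors lay above all 6 kidneys that remained, tumor 7 excepted, and 22.1% of genes showed this in at least that many tumors. Limma-voom with sample quality weights, which counts discordant libraries less, gave 0.61 with all 20 libraries (adjusted p = 2.38e-06). No fit gave a lower level in tumors, and Pax8 passed the threshold in 4 of 30 alternatives.

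Per kb of exon, tumors held 5.46 Pax8 for each Pax2 and normal kidneys 2.89. The log2 ratio of Pax2 to Pax8 averaged -2.45 ± 0.44 over tumors and -1.53 ± 1.06 over normal kidneys (SD, n = 10 each), and the difference was -0.92 (permutation test, two-sided p = 0.023, adjusted p = 0.0352 over 2 balances). In the 20 tests that left out a single library the difference stayed between -1.18 and -0.81, each with an exact permutation p under the threshold, at most 0.0427. Of 5 other alternatives 1 did not pass, the test with the library number as a block (permutation p = 0.0527). Normal kidney 9 had the lowest ratio of all, -3.89, whereas 7 of 10 normal kidneys, all but 5, 7 and 9, lay above every tumor.

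Lhx1 (ENSMUSG00000018698, chromosome 11, 84518284 to 84525535, minus strand), a LIM-homeobox factor of the early nephron, ranged over 7.98, 13.9 and 19.4 CPM in the lowest, median and highest tumor. In normal kidneys its levels fell into 3 ranges. Kidneys 1, 2, 3, 4, 6 and 10 had 27.9 to 37.7 CPM, kidneys 5, 7 and 8 had 13.1 to 17.5 CPM, inside the range of tumors, and kidney 9 had 5.09 CPM, below every tumor. Lhx1 fell by 0.86 on the log2 scale (SE 0.267, adjusted p = 0.0113 by edgeR), in all 30 alternative fits past the threshold. Without kidneys 5, 7, 8 and 9 the log2 fold change was -1.29 (adjusted p = 8.58e-07).

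Tfap2b (ENSMUSG00000025927, chromosome 1, 19208914 to 19238576), the AP-2 factor of the distal convoluted tubule, was nearly absent from tumors. In all, 6 of the 10 tumors had 0 counts, and the other 4 (tumors 1, 2, 3 and 7) had at most 9, at 0.392, 0.171, 0.0527 and 0.384 CPM. A count of 0 allows up to 3 counts, or 0.122 to 0.166 CPM across tumors, for counting error only. All tumors together held 20 counts and all normal kidneys 8455. Normal kidneys had from 17.4 CPM, in kidney 9, through a median of 44.8 to 70.0 CPM, with 277 to 1340 counts each. Every tumor thus lay below every normal kidney, as in 4.74% of genes tested. With at most 9 counts in a tumor, Tfap2b passed the filter on low counts only through normal kidneys. A gene that passes in this way is low in tumors from the start, so its separation is a description only. Normal kidneys averaged 43.8 ± 17.4 CPM (SD, n = 10), and the comparison gave a fitted log2 fold change of -8.70 (SE 0.569, adjusted p = 1.13e-10 by edgeR) that depends on the prior count. All 30 alternatives kept it past the threshold, between -9.79 and -8.53.

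Genes of the segment where Tfap2b acts were low in tumors too. The summed level of 7 distal convoluted tubule genes was 218 to 310 CPM in tumors against 596 to 3070 CPM in normal kidneys. All 6 of the genes tested were lower, where 23.8% of all genes tested were. Calb1, with at most 2 counts in a tumor, passed the filter on low counts only through normal kidneys. Most of the sum in tumors was Wnk1, a kinase that is also made outside this segment (mean 232 CPM), whereas Slc12a3, the defining sodium chloride transporter of the segment, averaged 2.00 CPM in tumors against 1170 CPM in normal kidneys, and Calb1 0.0251 CPM against 384 CPM. In normal kidneys Tfap2b was lowest in kidneys 9 (17.4 CPM), 7 (20.3 CPM) and 8 (31.3 CPM), and the summed level was 596 to 1500 CPM in kidneys 5, 7 and 8, 658 CPM in kidney 9 and 2160 to 3070 CPM in the other 6. Over the 7 kidneys other than 5, 7 and 8, r was 0.95 (n = 7, exact permutation p = 0.022, adjusted p = 0.0537) with rho 0.39, and without kidney 9 as well r was 0.62 (n = 6, exact permutation p = 0.254). Without kidneys 7 and 9, the farthest from the median sum, but with 5 and 8, r was 0.87 (n = 8, exact permutation p = 0.00372, adjusted p = 0.0342) with rho 0.59 (exact permutation p = 0.132).

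Esrrg (ENSMUSG00000026610, chromosome 1, 187608791 to 188214885), which drives genes of oxidative metabolism, was at 14, 35.7 and 41.4 CPM in the lowest, median and highest tumor and at 17.5, 61.5 and 78.8 CPM in normal kidneys. The lowest normal value was again that of kidney 9, followed by kidneys 5 (31.0 CPM) and 8 (40.8 CPM), and 1 tumor, tumor 7, lay below them all. Esrrg fell by 0.87 on the log2 scale (SE 0.247, adjusted p = 0.00652 by edgeR), 1.82-fold, and by 1.21 without kidneys 5, 7, 8 and 9 (adjusted p = 7.44e-05). Its close relative Esrrb went from 54.0 ± 19.8 CPM in normal kidneys to 0.167 ± 0.273 CPM in tumors (SD, n = 10 each) and fell by 8.34 on the log2 scale (adjusted p = 1.25e-10), every tumor below every normal kidney. Of all genes tested, 4.74% had every tumor below every normal kidney. Esrrb had at most 16 counts in a tumor and was close to 0 CPM there, so its separation is a description only. Esrra, the most widely expressed of the family, had a log2 fold change of -0.42 and did not pass (adjusted p = 0.173).

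Tfcp2l1 (ENSMUSG00000026380, chromosome 1, 118627945 to 118685168) was at 113, 219 and 433 CPM in the lowest, median and highest tumor. In normal kidneys it was at 123 CPM in kidney 9 and at 382 to 581 CPM in the other 9, and here kidneys 5, 7 and 8 (409, 510 and 382 CPM) did not stand apart as they did for Hnf4a and Lhx1. Tumors 5 (433 CPM) and 8 (374 CPM) lay within or just under the range of those 9 kidneys. Tfcp2l1 fell by 0.87 on the log2 scale (SE 0.245, adjusted p = 0.00587 by edgeR), with 1 tumor below every normal kidney, and its call held in all 30 alternatives.

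The collecting duct genes that Tfcp2l1 is known to pattern were far lower still. All 13 tested genes of the principal cell list (such as Aqp2, the water channel) and the intercalated cell list (such as Atp6v1g3, a proton pump subunit) were lower in tumors, with log2 fold changes from -12.24 to -4.41. Of all genes tested 23.8% were lower. Genes such as Aqp2 and Aqp6, with at most 7 and 5 counts in a tumor, passed the filter on low counts only through normal kidneys. The summed levels of these lists had medians of 1.67 and 4.63 CPM in tumors against 620 and 463 CPM in normal kidneys. Tfcp2l1 itself kept 0.55 of its normal level by the fitted fold. Within the tumors no relation of its level passed with the principal cell sum (r = -0.25, n = 10, permutation p = 0.486) or the intercalated cell sum (r = -0.27, n = 10, permutation p = 0.455). Without tumor 7 these r were 0.24 and 0.20. The sums in tumors were only 0.301 to 32.3 CPM and 1.85 to 12.3 CPM, too near 0 to show whether a relation exists. Of the 14 relations computed between a factor and a segment list, 4 passed an adjusted p of 0.05, 1 in tumors (Hnf4a with proximal tubule genes) and 3 in normal kidneys. Within the 7 kidneys other than 5, 7 and 8, 0 of 7 passed and 4 had an unadjusted exact permutation p under 0.05. Of these 4, Esrrg with loop of Henle genes (r = -0.895) and Tfcp2l1 with principal cell genes (r = -0.922) were negative. Tfap2b with distal convoluted tubule genes (r = 0.954) and Tfcp2l1 with intercalated cell genes (r = 0.891) were positive. Without kidney 9 as well, 0 of 7 had an unadjusted exact permutation p under 0.05 (lowest adjusted p = 0.561).

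**Figure D3:**
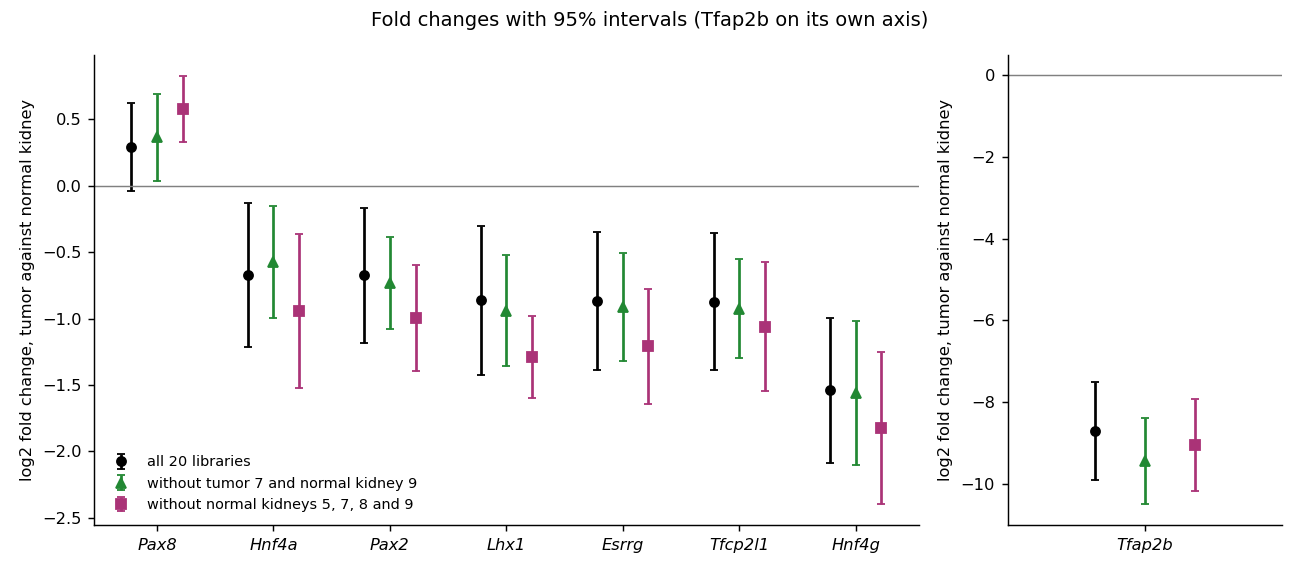
Log2 fold change of each factor between tumors and normal kidneys with its 95% interval, from the edgeR fits with all 20 libraries (black circles), without tumor 7 and normal kidney 9 (green triangles) and without normal kidneys 5, 7, 8 and 9 (purple squares). Tfap2b has an axis of its own. The intervals of the 7 factors that fell lie below 0 in all of these fits, and that of Pax8 reaches from -0.04 to 0.62 with all libraries and lies above 0 without the kidneys left out.

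Across the normal kidneys, Pax2, Lhx1, Tfap2b, Esrrg and Tfcp2l1 were each lowest in kidney 9, Hnf4a was lowest in kidney 7 and Hnf4g in kidney 5, and Pax8 was highest in kidneys 5, 7 and 9. Over the 10 normal kidneys Pax8 had a negative Pearson r of log2 CPM with each of the other 7 factors, from -0.76 with Lhx1 to -0.39 with Tfcp2l1. Over the 10 tumors its r was positive with all but Tfap2b, and was 0.85 with Esrrg and 0.81 with Lhx1. Lhx1 and Esrrg had an r of 0.94 in normal kidneys and 0.81 in tumors. These are descriptions over libraries that share their depth and a few libraries at the extremes. Within groups and without tumor 7 and normal kidney 9, r was 0.74 for Lhx1 and Esrrg and -0.53 for Pax8 and Lhx1.

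**Figure D4:**
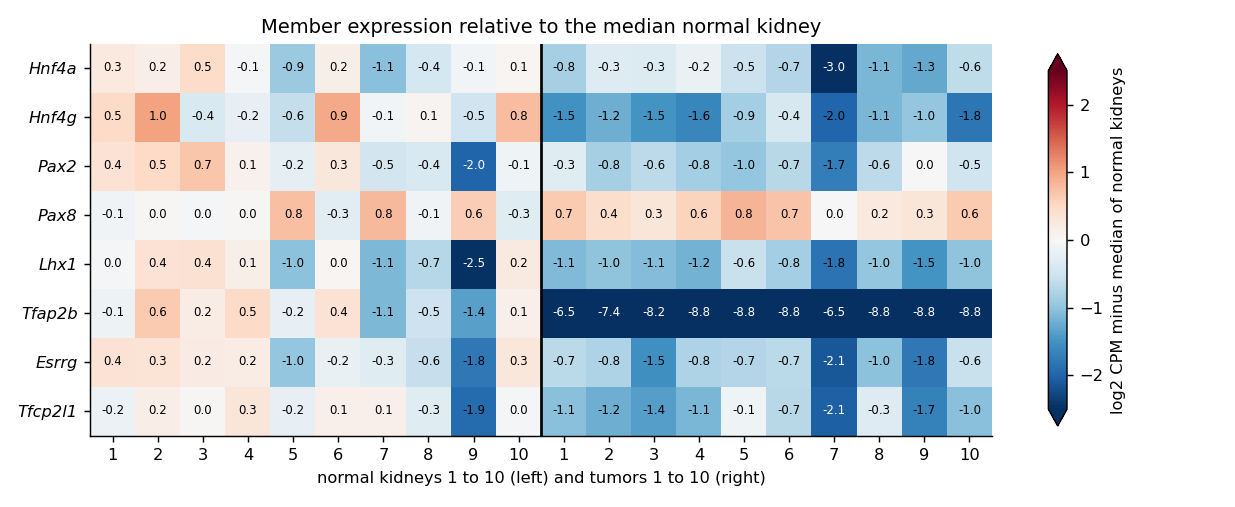
Log2 CPM of each factor in each library minus the median of the 10 normal kidneys, from blue (lower) to red (higher), with the colors ending at -2.5 and 2.5 and normal kidneys on the left of the line. Normal kidney 9 is low in Pax2, Lhx1, Tfap2b, Esrrg and Tfcp2l1, tumor 7 is the lowest tumor for 7 of the 8 factors, Tfap2b excepted, and Pax8 alone is near or above 0 in every tumor.

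Compared per kb of exon, the order of mean levels was much alike in both groups. In normal kidneys Hnf4a came first (135 CPM per kb), then Tfcp2l1 (46.7), Pax8 (21.5), Esrrg (9.06), Pax2 (7.87), Tfap2b (6.90), Lhx1 (6.08) and Hnf4g (2.06 CPM per kb). Hnf4a was above Tfcp2l1 in 10 of 10 normal kidneys, Pax8 above Esrrg in 10 and Lhx1 above Hnf4g in 10. Esrrg, Pax2, Tfap2b and Lhx1 were not separated from their neighbors, which changed places in 3 or 4 of 10 kidneys. In tumors Hnf4a again came first (84.8 CPM per kb), and Pax8 (26.2) and Tfcp2l1 (25.5) were not separated, with Pax8 above in 7 of 10 tumors. Esrrg (4.96) and Pax2 (4.93) followed with 5 of 10 tumors each way, then Lhx1 (3.35), Hnf4g (0.708) and last Tfap2b (0.0158 CPM per kb). Tfap2b moved from place 6 to place 8.

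The other transcription factors of the nephron fell by segment. Of 35 on a list written by hand, with earlier results of these data known, 32 were tested. Of these 23 were lower in tumors, 1 was higher and 8 did not pass, where 23.8% of all genes tested were lower. The median log2 fold change was -2.68 beside -0.02 for all genes tested. Irx1 and Sim2, with at most 8 and 3 counts in a tumor, passed the filter on low counts only through normal kidneys. Others on the list were also close to 0 CPM in tumors, so these counts only describe the list. In the loop of Henle and distal tubule all 8 of 8 were lower (median -5.15). Irx1 (-9.40), Sim2 (-8.69), Irx2 (-6.56), Tfap2a (-5.20), Emx1 (-5.11), Pou3f3 (-4.31) and Nr3c2 (-1.90), the mineralocorticoid receptor, each had every tumor below every normal kidney, as did 4.74% of genes tested. Irx3 fell by 0.66. Tfap2a, the relative of Tfap2b, went from 4.51 ± 1.88 CPM in normal kidneys to 0.110 ± 0.210 CPM in tumors (SD, n = 10 each).

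In the collecting duct 9 of 11 factors were lower (median -4.35). Foxi1 (-7.13), the master factor of intercalated cells, Dmrt2 (-5.56), Grhl2 (-5.29), Gata3 (-5.08), Ehf (-4.82), Elf5 (-4.35), Gata2 (-2.88) and Hoxd8 (-2.47) fell past 2-fold, and Hoxb7 fell by 0.53. Elf3, an epithelial ETS factor that is not particular to the duct, was the 1 factor that rose (33.6 ± 16.8 to 76.7 ± 34.8 CPM, SD, n = 10 each, log2 fold change 1.19, adjusted p = 0.0018 by edgeR). Emx2 had a log2 fold change of 0.23 and did not pass. Of the podocyte factors 4 of 5 were lower, namely Lmx1b (-5.00), Tcf21 (-3.41), Foxc1 (-2.99) and Foxc2 (-2.01).

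Of the proximal factors, Nr1h4 (-0.49, adjusted p = 0.0588), Ppara (-0.51, adjusted p = 0.0699) and Maf (0.76, adjusted p = 0.0507) did not pass. Among the early nephron and progenitor factors, 5 of 8 had enough counts, Wt1 (-1.75) and Hoxd11 (-2.22) were lower, and Sall1, Osr1 and Hoxa11 did not pass. Of 7 relatives of the factors 4 were tested, and Esrrb was the 1 that fell; Tfcp2 (-0.22, adjusted p = 0.241) and Ubp1 (0.16, adjusted p = 0.235), relatives of Tfcp2l1, did not pass.

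**Figure D5:**
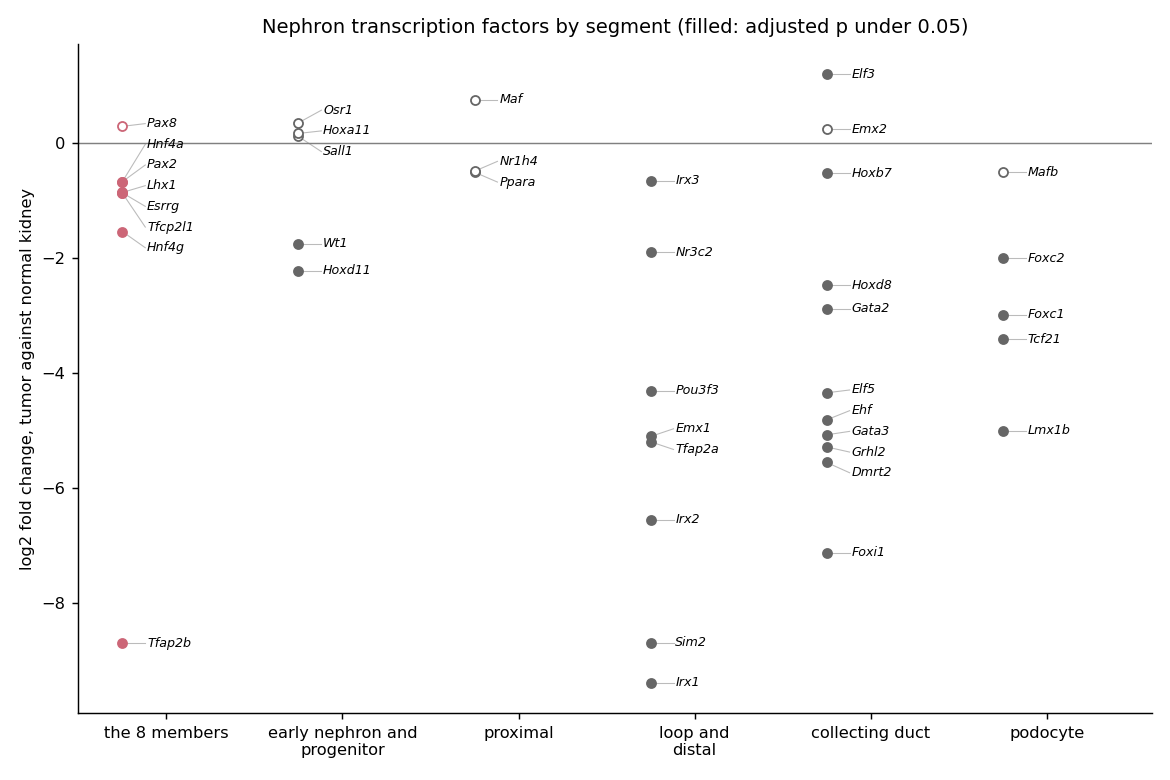
Log2 fold change between tumors and normal kidneys of the 8 factors (red) and of the 32 tested factors on the list of other nephron factors (grey), by segment. Filled points passed an adjusted p of 0.05 and open points did not. Loop, distal and collecting duct factors reach down to -9.40, whereas the proximal factors lie between -0.51 and 0.76.

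Genes whose levels followed each factor were sought among 14372 genes with a mean of at least 1 CPM, by Pearson's r of log2 CPM over the 20 libraries after the mean of each group was subtracted. The 3 nearest to Hnf4a were Slc39a5 (r = 0.96), Lrrc19 (0.95) and Tmem135 (0.94), and without tumor 7 and normal kidney 9 their r was 0.88 to 0.92. Tfap2b was nearest to Casr (0.90), the calcium-sensing receptor, Lmx1b (0.85) and Foxi1 (0.85), all lower in tumors. The tumor part of these r rests on few counts. Tfap2b had 0 counts in 6 tumors, and Lmx1b and Foxi1 had at most 14 and 13 in any tumor. Over normal kidneys alone the r with Tfap2b was 0.79 to 0.85. It pools kidneys in separate ranges of Tfap2b, namely 17.4 CPM in kidney 9, 20.3 to 38.8 CPM in kidneys 5, 7 and 8, and 40.6 to 70.0 CPM in the 6 others. The r within these ranges is not given. Pax8 was nearest to Gsto1 (0.85), F2rl1 (0.84) and Card19 (0.83), all higher in tumors. Nek1 (0.96), Cnst (0.94) and Magi2 (0.94) were nearest to Lhx1, Wdr47 (0.94), Zfp236 (0.93) and Numa1 (0.91) to Pax2, and Clmn (0.92), Traf3ip1 (0.91) and Sik3 (0.91) to Esrrg. For Tfcp2l1 they were Heph (0.93), Celsr1 (0.93) and Ctr9 (0.92), and for Hnf4g, with its few counts, Mgam (0.69), Gys1 (0.69) and Kiss1r (0.69). Without tumor 7 and normal kidney 9 the r of the 3 genes nearest to Pax2 fell to between 0.73 and 0.77, and that of F2rl1 and Card19 with Pax8 rose to 0.87 and 0.86.

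Some markers of other cells also differed between the groups. Of all genes tested, 23.6% were higher in tumors and 23.8% lower. The summed level of 7 macrophage genes was 321 to 1766 CPM in tumors against 118 to 540 CPM in normal kidneys, 4 of the 7 genes were higher in tumors and none lower. That of 5 podocyte genes was 136 to 272 CPM against 120 to 1000 CPM, with 4 of 5 lower. The sums of 5 endothelial genes (355 to 990 CPM against 420 to 583 CPM) and 5 fibroblast genes (101 to 6467 CPM against 195 to 1121 CPM) overlapped. Among them 1 endothelial gene was higher in tumors and 1 fibroblast gene was lower. Urothelium genes summed to 0.0527 to 114 CPM in tumors against 1.13 to 39.3 CPM in normal kidneys, adipose genes to 2.90 to 765 CPM and 0.189 to 273 CPM, and adrenal genes to at most 10.3 CPM in any library. Of the tested urothelium, adipose and adrenal genes, 0 passed the test. No list had a gene without a count in every tumor. The sum of 8 tubule injury genes was 8820 to 37000 CPM in tumors against 2230 to 49800 CPM in normal kidneys, with 1 gene higher and 3 lower. Normal kidneys 5, 7 and 8 had 28500 to 49800 CPM of it and the other 7 had 2230 to 4400 CPM, below every tumor. Most of this sum was a single gene, Spp1. It was at 8320 to 36100 CPM in tumors and at 26200 to 44300 CPM in kidneys 5, 7 and 8. Kidney 9 had 3520 CPM of Spp1 and the 6 others 2030 to 4050 CPM. The part of these cells in the levels of the 8 factors was not tested.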

How the data were processed

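Bulk RNA was sequenced from tumors and from normal kidneys of Cre-less model mice, 10 of each. Tissue was flash frozen and pulverized, RNA was extracted with Trizol and enriched for poly-A, and read pairs were sequenced on an Illumina instrument by a company. The authors deposited raw gene counts, without normalization, on mm10. Aligner, counter and use of strand were not given in the sources used here, so reads of Hnf4a and its antisense gene Hnf4aos (at most 268 counts in a library), or of Pax8 and the overlapping Gm13415 (at most 40), cannot be told apart with certainty. There were 0 unused columns and 0 rows without a gene name.

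The 8 genes and all lists were chosen with earlier results of these data known. Counts were scaled by TMM and filtered at a minimum of 10 with edgeR 4.0.16 (R 4.3.3), and all 20 libraries entered its quasi-likelihood test with no covariate. CPM are scaled by TMM. Standard errors are the absolute log2 fold change divided by the square root of F, and intervals are at 95%. Correlations used log2 CPM with a prior count of 2, and balances used counts plus 0.5 per kb of exon. Permutation tests took 100000 resamples (seed 2024), or all arrangements where called exact, and were two-sided. Named genes are the 8 factors, the members of the list of other nephron factors past 2-fold, the 3 genes nearest to each factor and list sums. Others, such as Irx3 and Hoxb7, were named after their values were seen, and some genes of that list are not reported here.

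Alternatives were DESeq2 1.42.0, limma 3.58.1 (voom with quality weights), other scaling factors, no filter, a replicate block and leaving out libraries. Leaving out normal kidneys 5, 7 and 8, or 5, 7, 8 and 9, was chosen after seeing the data, as were the subsets of 7 and 6 normal kidneys and 9 tumors. No pair of libraries of a group was alike within counting noise (lowest chi-square per degree of freedom 9.48 in 90 pairs). Tumors and normal kidneys came from the same mice, but whether a tumor and a normal kidney of the same number share a mouse is not stated. The p-values measure the spread between libraries, which were taken as independent except in the replicate block. Counting limits cover counting error only. The tests across genes were also run on simulated counts with known folds. These had the same spread for every gene and no outlying libraries, so they cannot vouch for calls that turn on single libraries. The build of the table was checked against GENCODE M21, in which 98.3% of matched genes, and all 8 factors, had the same coordinates. Promoter sequences are from RefSeq (GRCm38.p6).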

Additional observations from a re-analysis of the deposited data

Results flagged for a closer look

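The 20 sets of 10 values that were examined, 8 factors and 2 balances in each group, held 4 in which the lowest library lay farther from its nearest neighbor than Dixon's limit (0.466 of the range for 10 libraries). Chance gives such a gap in about 5% of sets. Tumor 7 was the low library for Hnf4a, at 6.42 log2 CPM, where the other tumors lay between 8.14 and 9.25. Normal kidney 9 was the low library for Pax2, at 3.39 log2 CPM (others 4.94 to 6.08), for Lhx1, at 2.38 (others 3.73 to 5.24), and for Tfcp2l1, at 6.95 (others 8.58 to 9.18). The same kidney was within the range of the others for Hnf4a (653 CPM), Hnf4g (3.14 CPM) and Pax8 (173 CPM).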

How the results depend on the processing

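Of the 8 factors, 5 to 7 were lower in tumors in the fits without a single library, 6 with no filter (Hnf4a lost, adjusted p = 0.0538 by edgeR) and 7 with the other scaling factors, DESeq2 and limma-voom. Hnf4a was called in 21 of 30 alternatives (adjusted p from 0.000122 to 0.0698), Pax2 in 27 (5.81e-06 to 0.0671) and Pax8 in 4 (2.38e-06 to 0.347, always higher). The other 5 factors kept their direction and their call in all 30. Other nephron factors lower in tumors numbered 22 to 26.

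Both groups carry the numbers 1 to 10. Deviations from the group means correlated by 0.191 to 0.377 in 9 of the 10 same-numbered pairs and by -0.143 in pair 9, and 8 of 10 libraries correlated best with their own number, a hint from the data and not the design, so numbers were not taken as pairs. With the number as a replicate block, 6 factors were lower (Pax2 lost, log2 fold change -0.64, adjusted p = 0.0671) and 23 other nephron factors. The difference in the balance of Pax2 to Pax8 stayed at -0.92 with a permutation p of 0.0527 in the block, and that of Hnf4g to Hnf4a at -0.74 with p = 0.0215.

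Leaving out each library in turn gave differences of -0.89 to -0.62 for Hnf4g to Hnf4a (exact permutation p 0.0097 to 0.0664, lost in 10 of 20) and -1.18 to -0.81 for Pax2 to Pax8 (0.00092 to 0.0427, lost in 0 of 20). Without normal kidneys 5, 7 and 8 the difference for Hnf4g to Hnf4a was -0.61 (p = 0.122), and without 9 as well -0.71 (p = 0.0942).

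Of the 14 relations, 4 passed in all libraries, 5 with library totals and 2 without the 2 libraries farthest from the median. Relations that changed sign had no call under the changed setting. With library totals r was 0.27 for Esrrg with loop genes in normal kidneys and -0.19 for Hnf4a with injury genes in tumors. Without the 2 farthest libraries r was -0.509 and -0.006 for Hnf4g with proximal tubule genes in tumors and normal kidneys, -0.063 for Esrrg with loop genes in tumors, 0.64 for Tfcp2l1 with principal cell genes in normal kidneys, 0.15 for Tfcp2l1 with intercalated cell genes in tumors and -0.20 for Hnf4a with injury genes in tumors. Without kidneys 5, 7 and 8 r was -0.17 for Hnf4a and -0.26 for Hnf4g with proximal tubule genes. Without tumor 7 r in tumors was -0.45 for Hnf4g with proximal tubule genes, -0.012 for Tfap2b with distal convoluted tubule genes, 0.24 and 0.20 for Tfcp2l1 with principal and intercalated cell genes and -0.17 for Hnf4a with injury genes. The cause was not tested. Depth limits Tfap2b in tumors and Hnf4g, with 25 to 63 counts a tumor.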

Other observations

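Lhx5, a relative of Lhx1, had too few counts to be tested and was singled out after its values were seen. It was at 0.947 ± 0.760 CPM (SD, n = 10) in tumors, at most 2.71 CPM, and at 0.0540 ± 0.0880 CPM (SD, n = 10) in normal kidneys.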
